A study of Homo sapiens with 22 samples.

Results

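The m6A readers are RNA-binding proteins that recognise N6-methyladenosine, the most common internal mark of mRNA, and decide what becomes of the marked transcript. 10 reader genes were looked up by symbol among the 20411 protein-coding genes of the RNA-seq tables, and all 10 were found. They are the YTH domain proteins YTHDF1, YTHDF2, YTHDF3, YTHDC1 and YTHDC2, the IGF2 mRNA-binding proteins IGF2BP2 and IGF2BP3, and 3 other RNA-binding proteins, FMR1, ELAVL1 and PRRC2A.

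The YTH domain holds the methylated base directly in a pocket. In the cytoplasm YTHDF2 brings the CCR4-NOT deadenylase to marked mRNA and thereby hastens its decay, while YTHDF1 and YTHDF3 have been linked to translation and also to decay. YTHDC1 works in the nucleus, in splicing and export, and YTHDC2 is a helicase best known from the germ line. The IGF2BP proteins act in the other direction and stabilise marked mRNA, which makes the balance of both families of interest in acute myeloid leukemia, where the eraser FTO is an oncogenic factor.

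MOLM-13 is an acute myeloid leukemia line with a KMT2A rearrangement, and NB4 is an acute promyelocytic leukemia line. Cells of both were treated for 48 hours with 2 μM FP54, a PROTAC that binds FTO at one end and the VHL ubiquitin ligase at the other so that FTO protein is degraded, or with DMSO, the solvent. Each treatment had 3 RNA-seq libraries in each line, 12 libraries in all, of 22 samples in the series. Its other samples, from m6A-seq and polysome-seq, are not used here. The labels do not say whether the 3 libraries came from separate cultures, so p-values measure only the spread between these libraries, which may be technical. Each line is 1 established culture, and no control compound that leaves FTO protein in place is among these libraries, so loss of FTO and other effects of the compound cannot be told apart.

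The values are RPKM, reads scaled by transcript length and by library total. Library totals recovered from them were 16542565, 16299705 and 17346910 reads in MOLM-13 DMSO replicates 1 to 3, and 19191063, 5829732 and 12028681 in FP54 replicates 1 to 3. In NB4 cells they were 20654057, 21306621 and 22344276 with DMSO and 10595650, 11637317 and 13071307 with FP54. The readers had from 100 reads (YTHDF1 in MOLM-13 FP54 replicate 2, the shallowest library) to 7208 reads (PRRC2A in NB4 DMSO) per library, so none was near the floor of detection.

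Markers set the lines apart. HOXA9, a homeobox gene kept on by KMT2A fusions, was at 21.3 ± 2.14 RPKM (SD, n = 3) in MOLM-13 and 0.234 ± 0.0799 RPKM in NB4 with DMSO, and its cofactor MEIS1 was at 6.36 ± 0.304 and 0.157 ± 0.0101 RPKM (SD, n = 3). MPO, the myeloperoxidase of promyelocyte granules, was at 2170 ± 119 RPKM in NB4 and 16.1 ± 2.92 RPKM in MOLM-13. HGF, also on the NB4 list, was at 3.32 ± 0.839 RPKM in NB4 and 0.1005 ± 0.0236 RPKM in MOLM-13. The other 4 of the 6 genes on that list, all granule proteins, went against it and were higher in MOLM-13. ELANE was at 0.1496 ± 0.0627 RPKM in NB4 and 186 ± 38.4 RPKM in MOLM-13, and AZU1 at 9.96 ± 1.54 and 174 ± 10.2 RPKM. PRTN3 was at 60.97 ± 7.15 RPKM in NB4 and 413 ± 104 RPKM in MOLM-13, and CTSG at 58.5 ± 8.45 and 116 ± 22.2 RPKM. Of the 3 T cell markers CD3D reached 6.35 ± 0.528 RPKM in NB4, and of the 3 epithelial markers EPCAM reached 8.15 ± 0.389 RPKM, while COL1A1 (fibroblast), HBB (erythroid), and KRT19 and CDH1 (epithelial) were at or near 0.

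The readers themselves may carry the mark, and the marked base often sits in the motif GGACT. That run was searched on the transcript strand only, in the coding sequence of 1 canonical transcript per gene (GENCODE v44, hg38), for 10648 of the 10714 genes tested in either line. It was found in 74.1% of these coding sequences, at a median of 0.955 per kilobase, and in 7 of the 10 readers, of which 3 lay above that median. IGF2BP2 had 4 matches (2.23 per kilobase, higher than 87.0% of the genes) and PRRC2A had 9 (1.39 per kilobase, higher than 66.9%). YTHDF2 had 1, and YTHDC1, FMR1 and ELAVL1 had none in the coding sequence. Untranslated regions and other forms of the motif were not searched. The paper reports marked sites around start and stop codons and more enrichment in 3' untranslated regions with FP54. These counts therefore do not rank the readers by how far they may carry the mark. The match nearest the stop codon that has its window within 1 exon is shown for the 3 readers that have one and that the results turn on. It stands in capitals with 10 bases on each side, and whether it is methylated was not examined.
YTHDF2, chr1:28743691-28743715, plus strand: aatctgctgtGGACTacaacacatg
IGF2BP2, chr3:185672598-185672622, minus strand: cttttcaacaGGACTgtccgtgcta
PRRC2A, chr6:31637108-31637132, plus strand: ggatcatcacGGACTcccccaactg
All 3 lie in a single coding exon, 302, 664 and 243 bases before the end of the last sense codon.

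The order of the reader mRNAs differed between the lines. With DMSO, IGF2BP2 was the most abundant reader in MOLM-13, at 39.4 ± 3.88 RPKM (SD, n = 3), and its lowest library stood above every library of YTHDF3, the next at 31.0 ± 3.17 RPKM. YTHDF3, PRRC2A, YTHDC1 and YTHDF2 then followed from 31.0 down to 21.3 RPKM, and no neighbours among these 4 differed beyond their spread. A gap that no library crossed separated them from ELAVL1, FMR1 and YTHDF1, at 9.38, 8.70 and 7.15 RPKM, whose neighbours again overlapped. YTHDC2 (4.20 RPKM) and IGF2BP3 (2.65 RPKM) were last, each below the one before in every library.

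In NB4 the top places went to PRRC2A and YTHDF2, at 34.4 ± 2.98 and 34.2 ± 2.87 RPKM, which overlapped. ELAVL1 (27.2 RPKM) and YTHDF1 (25.4 RPKM) came next and overlapped with each other. YTHDC1 (16.1 RPKM) followed, without overlap with IGF2BP2. It did overlap with IGF2BP3, whose replicate 1 (15.6 RPKM) lay above YTHDC1 replicate 2 (15.5 RPKM). IGF2BP2 and IGF2BP3 were level, at 14.1 ± 0.829 and 13.8 ± 2.33 RPKM, and YTHDF3 (8.93 RPKM), FMR1 (5.53 RPKM) and YTHDC2 (2.88 RPKM) closed the order without overlap.

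Set side by side, with no test since the lines come in separate tables, the DMSO levels of all 10 readers did not overlap between the lines, as held for 76.4% of the 8849 genes tested in both. The ratio of the means was widest for IGF2BP3, 5.22 times higher in NB4. YTHDF1 was 3.56 times and ELAVL1, which protects AU-rich mRNA from decay, 2.90 times higher in NB4. YTHDF3 was 3.47 times and IGF2BP2 2.79 times higher in MOLM-13. YTHDF2 (1.60 times) and PRRC2A (1.24 times) were higher in NB4, and FMR1 (1.57 times), YTHDC2 (1.46 times) and YTHDC1 (1.42 times) in MOLM-13.

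**Figure D1:**
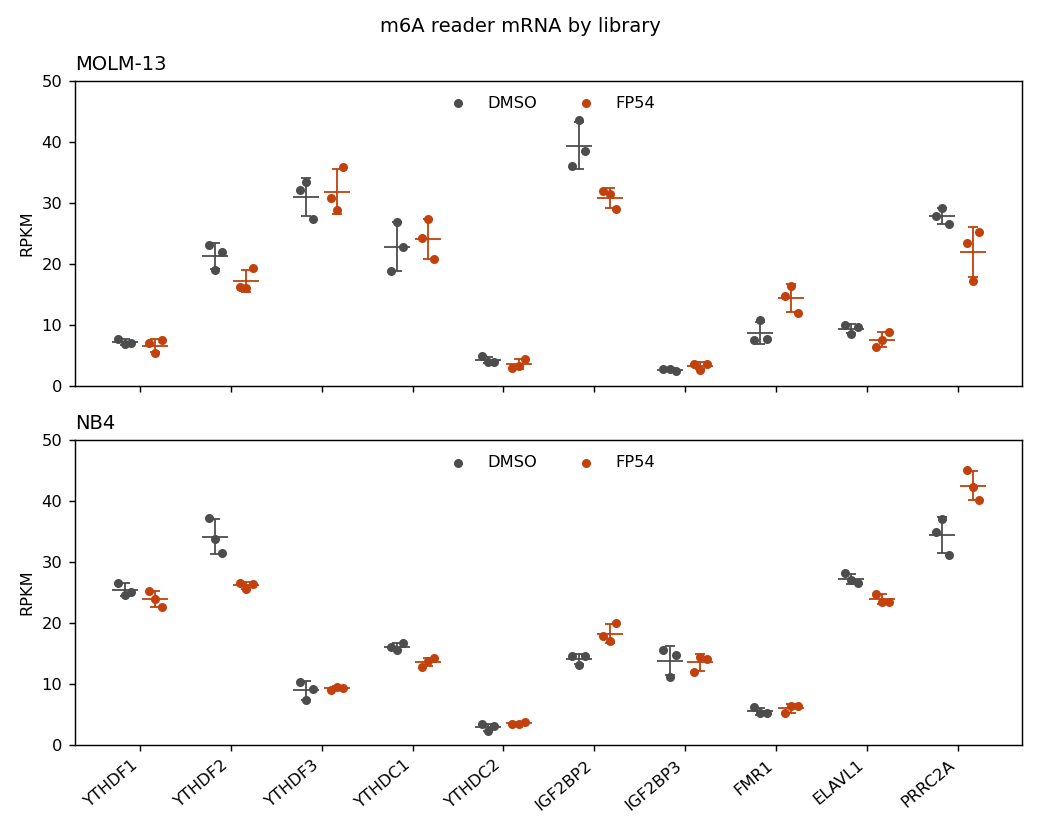
RPKM of the 10 readers in each library, MOLM-13 above and NB4 below, with points for libraries and a bar with whiskers for the mean and SD of 3. In MOLM-13, IGF2BP2 and PRRC2A lie lower and FMR1 lies higher with FP54 in every library. In NB4, YTHDF2, YTHDC1 and ELAVL1 lie lower and YTHDC2, IGF2BP2 and PRRC2A lie higher with FP54 in every library.

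Within the YTHDF family the leading member changed with the line. YTHDF3 held 52.1 ± 3.94% of the summed YTHDF1, YTHDF2 and YTHDF3 RPKM in MOLM-13 DMSO libraries, YTHDF2 held 35.9 ± 3.50% and YTHDF1 12.02 ± 0.439% (SD, n = 3). In NB4 DMSO libraries YTHDF2 held 49.8 ± 1.80%, YTHDF1 37.2 ± 1.11% and YTHDF3 12.99 ± 1.60%. The sum itself was closer, 59.5 ± 3.34 RPKM in MOLM-13 and 68.6 ± 4.81 RPKM in NB4. With FP54 the share of YTHDF2 was 30.9 ± 1.02% in MOLM-13 and 44.1 ± 1.07% in NB4. In NB4 its highest FP54 library (45.3%) lay below its lowest DMSO library (47.9%), and in MOLM-13 the gap was only that between 32.0% and 32.1%. With 3 libraries on each side, 0.1 is the smallest two-sided p that exact permutation allows, so the shares were left without a test.

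The IGF2BP family differed more. IGF2BP1, which stands outside the 10 readers but is the third paralog, had 5, 1 and 1 reads in the MOLM-13 DMSO libraries and 1, 0 and 1 with FP54, against 5791 to 7385 reads in the NB4 DMSO libraries. Of the family's RPKM in MOLM-13 DMSO libraries, IGF2BP2 made up 93.6 ± 0.728% and IGF2BP3 6.33 ± 0.690%. In NB4, IGF2BP1 made up 54.0 ± 0.312%, IGF2BP2 23.3 ± 1.52% and IGF2BP3 22.7 ± 1.23%. With FP54 in NB4 the share of IGF2BP2 was 27.7 ± 1.89%, above the DMSO libraries in each of the 3, and that of IGF2BP1 was 51.9 ± 2.55%. In MOLM-13 it was 90.4 ± 1.75% with FP54, below the DMSO libraries in each of the 3, and that of IGF2BP3 was 9.59 ± 1.74%.

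**Figure D2:**
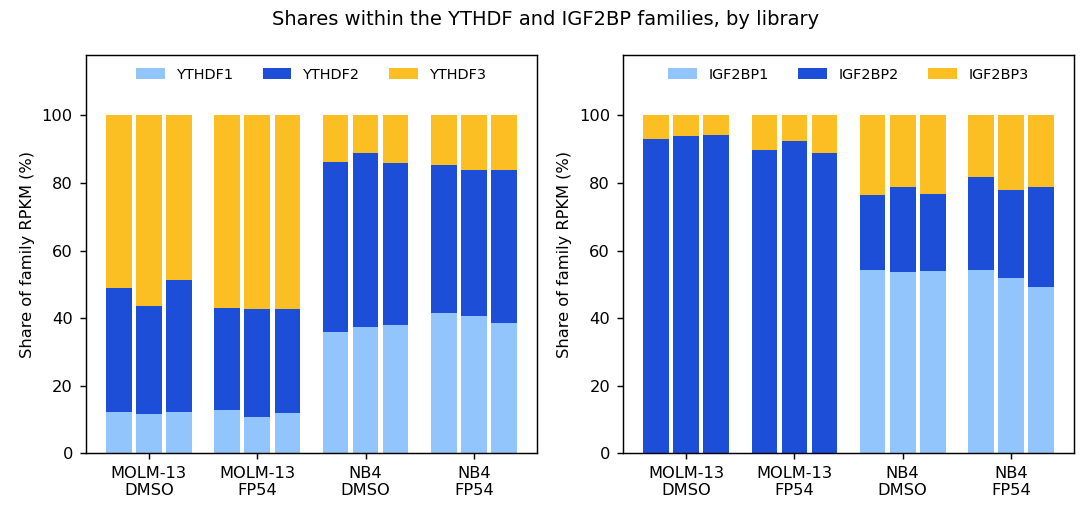
Share of each paralog in the summed RPKM of its family, one bar per library, YTHDF1 to 3 on the left and IGF2BP1 to 3 on the right. YTHDF3 holds the largest share in MOLM-13 and the smallest in NB4; IGF2BP1 is visible in NB4 alone.

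The comparison of FP54 with DMSO asks whether readers change at the mRNA level when the eraser is removed. Log2(RPKM + 0.1) was compared in each line with limma over the genes that averaged 1 RPKM or more, and a gene passed at a Benjamini-Hochberg adjusted p below 0.05 over all genes tested. All 10 readers were tested in both lines. In bulk RNA, fewer cells of a kind and less RNA per cell cannot be told apart. The mRNA of FTO itself, a demethylase, was at 1.01 ± 0.0767 RPKM with DMSO and 1.01 ± 0.118 RPKM with FP54 in MOLM-13; in NB4 it fell from 2.73 ± 0.180 to 2.03 ± 0.0782 RPKM (SD, n = 3; log2 fold change -0.41, adjusted p = 0.0119, or 0.0576 without FP54 replicate 2).

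In MOLM-13 the one reader that passed was FMR1, which rose. No reader passed lower by limma or by limma-voom on the recovered reads, and 2 readers, FMR1 and IGF2BP2, had an unadjusted p below 0.05, as 35.0% of all genes did. Against this, 9.84% of the 9710 genes tested passed higher and 9.32% passed lower, so 1 of 10 is near the share of all genes. The calls over all genes, 905 lower and 955 higher, depend on single libraries, as they went to 213 and 256 without FP54 replicate 1, to 224 and 316 without DMSO replicate 3 and to 352 and 495 without DMSO replicate 1. With low genes kept they were 56 and 74. FMR1 did not pass in any of these 4 fits. Treatments did not overlap for 3 readers, FMR1 (higher), IGF2BP2 and PRRC2A (lower), and for 37.1% of all genes. At the cutoff of the study, an unadjusted p below 0.01 together with a change of 0.5 or more on the log2 scale, FMR1 passed, beside 18.3% of genes. The median log2 fold change of the 10 readers was -0.19 and that of all genes 0.00326.

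In NB4, YTHDF2 and YTHDC1 fell and IGF2BP2 and PRRC2A rose. Of the 9853 genes tested 22.0% passed lower and 29.8% higher, so 2 of 10 readers in each direction is again close to or under the background. Treatments did not overlap for 6 readers and for 60.5% of all genes. No reader reached the cutoff of the study, which 29.3% of genes did, since every reader changed by less than 0.5 on the log2 scale. The median was 0.02 for the readers and 0.07 for all genes.

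The NB4 figures depend on how libraries are scaled. Median-ratio scaling moved the median of all genes from 0.07 to -0.13, and the calls over all genes from 2164 lower and 2935 higher to 3602 lower and 1889 higher. The median of all genes is therefore given beside the NB4 results as a base. Relative to it, YTHDF2 was at -0.45, YTHDC1 at -0.32, IGF2BP2 at 0.30 and PRRC2A at 0.24. Quantile normalization gave 2769 lower and 2334 higher. With low genes kept there were 1962 lower and 5796 higher, and the median of all genes was 0.16. Markers differed with the treatment as well. In NB4 the DMSO and FP54 means were 80.2 and 60.5 RPKM for SPI1, 109.9 and 77.35 for MYB and 38.7 and 33.6 for CEBPA. FLT3 was at 5.67 and 4.72 RPKM and PTPRC at 9.08 and 14.75 RPKM, and none of these overlapped. In MOLM-13 MYB was at 93.9 and 65.8 RPKM, PTPRC at 24.3 and 35.1, HOXA9 at 21.3 and 24.7 and MEIS1 at 6.36 and 8.32, also without overlap. CD33 overlapped in both lines, and SPI1, CEBPA and FLT3 in MOLM-13. In NB4 MPO was at 2170 ± 119 RPKM with DMSO and 1116 ± 33.6 RPKM with FP54, CTSG at 58.5 ± 8.45 and 9.49 ± 0.698 RPKM, PRTN3 at 60.97 ± 7.15 and 15.9 ± 1.10 RPKM, AZU1 at 9.96 ± 1.54 and 6.88 ± 0.174 RPKM, and HGF at 3.32 ± 0.839 and 0.242 ± 0.0173 RPKM, while ELANE was near 0 with both. In MOLM-13 MPO was at 16.1 ± 2.92 RPKM with DMSO and 3.79 ± 0.741 RPKM with FP54, and CTSG at 116 ± 22.2 and 62.1 ± 5.67 RPKM. The other members of that list overlapped between the treatments in MOLM-13. ELANE was at 186 ± 38.4 and 186 ± 59.8 RPKM, AZU1 at 174 ± 10.2 and 215 ± 57.1 RPKM and PRTN3 at 413 ± 104 and 354 ± 125 RPKM, and HGF was near 0. In NB4 the 3 T cell markers summed to 6.04, 7.01 and 6.09 RPKM with DMSO and 10.2, 10.7 and 10.6 RPKM with FP54, nearly all of it CD3D, while CD2 and CD3E were at or near 0. The mean RPKM of 416 olfactory receptor genes, which myeloid cells do not use, was from 0.00168 to 0.00372 in NB4 DMSO and from 0.0496 to 0.0549 in NB4 FP54 libraries. The part of the markers in the reader results was not tested. With the olfactory level subtracted from each library, all 4 NB4 readers passed as before. The lowest value of these 4 readers was 12.8 RPKM, so taking off so small a level could hardly have moved them. It therefore does not test whether background plays a part in the reader results.

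YTHDF2, at chr1:28736621-28769775 (hg38, plus strand), is the decay-promoting reader. In NB4 it was at 37.2, 33.9 and 31.5 RPKM with DMSO and 26.6, 25.6 and 26.4 RPKM with FP54. Every FP54 library lay below every DMSO library, and the FP54 libraries differed little among themselves. YTHDF2 fell by 0.38 on the log2 scale (SE 0.0863, adjusted p = 0.00407), to 76.9% of the DMSO level. At an adjusted p below 0.05 the call held under every alternative fit, with a change of -0.58 (adjusted p = 0.000227) under median-ratio scaling. As deposited, the values gave a change smaller than the 0.5 that the cutoff of the study asks for. In MOLM-13 it was at 23.1, 19.0 and 21.9 RPKM with DMSO and 16.2, 16.1 and 19.3 RPKM with FP54. There FP54 replicate 3 lay above DMSO replicate 2, and the log2 fold change of -0.31 (SE 0.144) did not pass (adjusted p = 0.155). The effects in the lines differed by -0.07 (95% CI -0.42 to 0.28), which did not pass either and leaves room for a difference of that width.

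YTHDF1 did not pass in either line in the main fit, with log2 fold changes of -0.13 in MOLM-13 (95% CI -0.49 to 0.24) and -0.09 in NB4 (95% CI -0.27 to 0.10). YTHDF3 was at 0.04 (95% CI -0.28 to 0.36) and 0.07 (95% CI -0.20 to 0.34). In NB4 median-ratio scaling gave -0.29 for YTHDF1, which passed (adjusted p = 0.0174), and quantile normalization gave -0.008 (adjusted p = 0.946). Of the 3 paralogs YTHDF2 thus had the lowest fold change in both lines.

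YTHDC1, the nuclear reader, was at 16.1, 15.5 and 16.8 RPKM with DMSO and 12.8, 13.7 and 14.2 RPKM with FP54 in NB4. The treatments were apart in every library, and the level fell by 0.25 on the log2 scale (SE 0.0852, adjusted p = 0.0332; -0.44 and 0.00136 with median-ratio scaling), a call that, with single libraries left out, held only without DMSO replicate 2. It was lost without DMSO replicate 1 (adjusted p = 0.0567) or 3 (0.101), and without FP54 replicate 1 (0.124), 2 (0.0976) or 3 (0.0628). In MOLM-13 YTHDC1 spread from 18.8 to 26.8 RPKM with DMSO alone, and the FP54 libraries lay within or just above that range. YTHDC2 did not pass in either line. In MOLM-13 its treatments overlapped, at -0.25 (adjusted p = 0.377). In NB4 it was at 3.38, 2.22 and 3.04 RPKM with DMSO and 3.503, 3.51 and 3.75 RPKM with FP54, higher in all FP54 libraries, at 0.33 (adjusted p = 0.0895). That value was 0.13 with median-ratio scaling and 0.08 with quantile normalization. With 1 library left out it ran from 0.16 without DMSO replicate 2 to 0.45 without DMSO replicate 1, where alone it passed (adjusted p = 0.0256). The interaction, at 0.58 (95% CI 0.04 to 1.12, adjusted p = 0.145), did not pass; without MOLM-13 FP54 replicate 3 it did (0.75, adjusted p = 0.0435).

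IGF2BP2, at chr3:185643130-185825042 (minus strand), differed between the lines in its response to FP54. In MOLM-13 it was at 36.1, 43.7 and 38.5 RPKM with DMSO and 31.9, 31.5 and 28.9 RPKM with FP54. All FP54 libraries were lower, but the log2 fold change of -0.35 (SE 0.133) did not pass (adjusted p = 0.0890). In NB4 it was at 14.6, 13.2 and 14.6 RPKM with DMSO and 17.8, 17.04 and 19.98 RPKM with FP54. Here all FP54 libraries were higher, and IGF2BP2 rose by 0.37 (SE 0.0937, adjusted p = 0.00740); with median-ratio scaling the change was 0.17 and no longer passed (adjusted p = 0.139).

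The difference itself was tested as an interaction over 12 libraries and 8849 genes, of which 14.2% passed. The 1258 calls were 332 lower and 926 higher in NB4, against 833 and 630 with median-ratio scaling and 911 and 836 with quantile normalization, and the median of all genes went from 0.08 to -0.09 and -0.02. Without NB4 FP54 replicate 1, 2 or 3 the calls went to 212 and 654, 200 and 607, and 199 and 613. IGF2BP2 passed, with an FP54 effect 0.72 higher in NB4 than in MOLM-13 on the log2 scale (SE 0.156, 95% CI 0.39 to 1.06, adjusted p = 0.00664). This call held under each alternative run, with adjusted p from 0.00264 to 0.0376. The level was higher in MOLM-13 with DMSO, and with FP54 the means lay closer, at 30.8 ± 1.63 RPKM in MOLM-13 and 18.3 ± 1.53 RPKM in NB4.

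IGF2BP3 did not pass, at 0.28 in MOLM-13 (95% CI -0.14 to 0.69) and -0.02 in NB4 (95% CI -0.32 to 0.27). Its gene overlaps MALSU1 on the other strand, and the strand setting of the counting is not given in the sources used here, so reads of the pair may be mixed. MALSU1 was at 14.4 ± 0.804 RPKM in NB4 and 3.49 ± 1.03 RPKM in MOLM-13 with DMSO, higher in the line where IGF2BP3 was higher. With FP54 the mean of MALSU1 was lower in both lines, at 9.62 ± 0.158 RPKM in NB4 and 2.51 ± 0.255 RPKM in MOLM-13. IGF2BP3 was then at 13.5 ± 1.37 and 3.26 ± 0.561 RPKM, close to its DMSO mean in NB4 and above it in MOLM-13. Whether reads of the pair were mixed was not tested.

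PRRC2A, a large proline-rich protein at chr6:31620715-31637771 (plus strand), also had changes of opposite sign in the lines, of which the NB4 change passed. In MOLM-13 it was at 27.8, 29.1 and 26.5 RPKM with DMSO and 23.4, 17.2 and 25.2 RPKM with FP54. All FP54 libraries were lower, with the widest gap in the shallow replicate 2, and the log2 fold change of -0.36 (SE 0.162) did not pass (adjusted p = 0.143). Without that library the value was -0.19 (adjusted p = 0.315). In NB4 it was at 34.96, 37.1 and 31.2 RPKM with DMSO and 45.1, 42.3 and 40.2 RPKM with FP54. All FP54 libraries were higher, and PRRC2A rose by 0.31 (SE 0.0908, adjusted p = 0.0159). Median-ratio scaling gave 0.11 (adjusted p = 0.391), and the call was also lost without DMSO replicate 3 (adjusted p = 0.0653), FP54 replicate 1 (0.0733) or FP54 replicate 2 (0.0552). PRRC2A passed the interaction at 0.66 (SE 0.189, adjusted p = 0.0300). That call was lost without MOLM-13 DMSO replicate 1 (adjusted p = 0.0563), without NB4 DMSO replicate 3 (0.0834), without NB4 FP54 replicate 1 (0.0803), 2 (0.0689) or 3 (0.0527), with median-ratio scaling (0.0731), and with the replicate number as a block (0.0658). Unnamed coding genes are annotated on the same strand over part of PRRC2A, and how reads were shared with them is not given in the sources used here.

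FMR1, at chrX:147911919-147951125 (plus strand), encodes FMRP, a ribosome-associated protein that represses translation and is lost in fragile X syndrome. In MOLM-13 it was at 7.58, 10.8 and 7.74 RPKM with DMSO and 14.7, 16.4 and 11.9 RPKM with FP54. All FP54 libraries were higher, although FP54 replicate 3 and DMSO replicate 2 came close. FMR1 rose by 0.72 on the log2 scale (SE 0.183, adjusted p = 0.0242), to 165% of the DMSO level, which is the largest change of any reader in either line. The call was lost without DMSO replicate 1 (adjusted p = 0.0851) or 3 (0.102), or FP54 replicate 1 (0.0951) or 2 (0.0510), and when low genes were kept (0.147), while the fold change stayed between 0.62 and 0.88. In NB4 it was at 6.18, 5.19 and 5.22 RPKM with DMSO and 5.16, 6.41 and 6.402 RPKM with FP54, so the treatments overlapped, and the log2 fold change of 0.11 did not pass (adjusted p = 0.460). The FP54 effect was 0.61 lower in NB4 than in MOLM-13, which did not pass (95% CI for the difference -1.10 to -0.12, adjusted p = 0.0939); with median-ratio scaling (0.0401) and quantile normalization (0.0364) it did.

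ELAVL1 was lower in log2 fold change in both lines without passing in the main fit, at -0.32 in MOLM-13 (SE 0.163, adjusted p = 0.187) and -0.19 in NB4 (SE 0.0782, adjusted p = 0.0692). In NB4 its FP54 libraries, at 24.8, 23.5 and 23.5 RPKM, were all below the DMSO libraries, at 28.1, 27.0 and 26.5 RPKM. Median-ratio scaling there gave -0.38, which passed (adjusted p = 0.00281), and quantile normalization gave -0.10 (adjusted p = 0.323). With 1 NB4 library left out the adjusted p of ELAVL1 ran from 0.0353 to 0.211. Over the 10 readers, 5 had the same sign of log2 fold change in both lines.

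**Figure D3:**
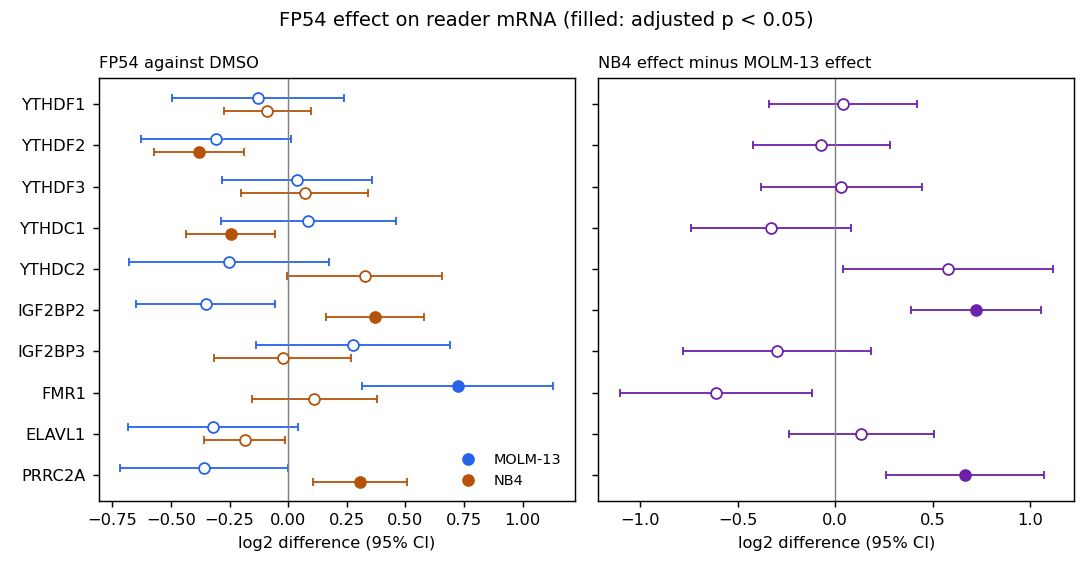
Log2 fold change of each reader with FP54 in MOLM-13 and NB4 (left) and the difference of these effects (right), with 95% confidence intervals from limma and filled points at an adjusted p below 0.05. IGF2BP2 and PRRC2A lie below 0 in MOLM-13 and above 0 in NB4, and FMR1 in MOLM-13 lies farthest from 0.

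The genes whose profile was most like that of a reader were taken by the root-mean-square difference of log2(RPKM + 0.1), centred in each line, over 12 libraries and 8848 other genes. For YTHDF2 they were ALAS1 (0.0591), which starts heme synthesis, WDR5 (0.0616), a core subunit of histone H3 lysine methyltransferases, and FAM78A (0.0687), with a median of 0.297 over all genes. ALAS1 had log2 fold changes of -0.34 in MOLM-13 and -0.38 in NB4. For FMR1 they were ZNF224 (0.113), a zinc finger repressor, PPFIBP2 (0.116) and ANKRD42 (0.118), with a median of 0.396.

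Relatives of the readers and other proteins reported to bind m6A formed a list of 14 genes. In MOLM-13, 5 of 13 tested passed lower and none higher, with 5 at an unadjusted p below 0.05 (35.0% of all genes); in NB4, 5 of 14 passed lower and 2 higher. Over all genes 9.32% passed lower and 9.84% higher in MOLM-13, and 22.0% and 29.8% in NB4. The median log2 fold changes were -0.01 and -0.17. HNRNPA2B1, a nuclear reader in splicing and microRNA processing, fell in both lines, by 0.88 in MOLM-13 (SE 0.192, adjusted p = 0.0139) and by 0.68 in NB4 (SE 0.0764, adjusted p = 4.64e-05). It went from 139 ± 17.7 to 77.0 ± 18.2 RPKM in MOLM-13. EIF3A and EIF3B, subunits of the initiation factor that can bind m6A near the cap, also fell in both, EIF3A by 0.93 and 0.52 and EIF3B by 0.64 and 0.50. The NB4 calls of these 3 genes held under every alternative run. Those in MOLM-13 were lost in 3 (HNRNPA2B1), 5 (EIF3A) and 4 (EIF3B) of 16 alternatives, among them the omission of DMSO replicate 3 or FP54 replicate 1, with adjusted p up to 0.134, 0.236 and 0.110. RBMX and LRPPRC also passed lower in MOLM-13, calls that were lost in 9 and 8 of 16 alternatives. None of the 5 MOLM-13 calls held without DMSO replicate 3, without FP54 replicate 1 or with low genes kept. IGF2BP1 was at 32.8 ± 4.03 and 34.2 ± 1.14 RPKM in NB4 with DMSO and FP54 and did not pass (adjusted p = 0.585).

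The deadenylation and decay machinery was a list of 22 genes, all tested. It holds genes of CCR4-NOT, which YTHDF2 brings to marked mRNA, and also other decay genes such as PAN2, PAN3 and XRN1. In MOLM-13, 1 passed higher and none lower, with 4 at an unadjusted p below 0.05 (35.0% of all genes), and in NB4 4 passed in each direction, all under the shares of all genes (9.32% lower and 9.84% higher in MOLM-13, 22.0% and 29.8% in NB4); the medians were -0.03 and -0.02. PAN2, the catalytic subunit of the PAN2-PAN3 deadenylase, rose in both lines, by 0.77 in MOLM-13 (SE 0.157, adjusted p = 0.0108) and 1.02 in NB4 (SE 0.0946, adjusted p = 1.36e-05). Without DMSO replicate 3 or FP54 replicate 1, or with low genes kept, its MOLM-13 call was lost (adjusted p up to 0.0837 over all alternatives). CNOT1, the scaffold of CCR4-NOT that YTHDF2 binds, did not pass, at -0.04 and 0.15; it was picked after its values were seen.

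Of 7 tested partners of the readers, SRSF3, the splicing factor that works with YTHDC1, fell by 0.74 in MOLM-13 (adjusted p = 0.0107) and by 0.45 in NB4 (adjusted p = 0.000703). The MOLM-13 call was lost without FP54 replicate 1 and with low genes kept (adjusted p up to 0.0837 over all alternatives). No other partner passed in MOLM-13, where 9.32% of all genes passed lower and 9.84% higher. In NB4, where 22.0% and 29.8% did, 1 other passed, PABPC1, the poly(A)-binding protein, which rose by 0.47 (adjusted p = 0.000560).

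Of 11 writers and erasers, 2 passed lower in MOLM-13 and 5 in NB4, and none passed higher in either by limma, with 2 and 6 at an unadjusted p below 0.05. Over all genes 9.32% passed lower and 9.84% higher in MOLM-13, 22.0% and 29.8% in NB4, and 35.0% and 58.0% had an unadjusted p below 0.05. The medians were -0.19 and -0.18. RBM15 and RBM15B, which guide the writer complex to RNA, fell in both lines, by 0.57 and 0.56 in MOLM-13 and by 0.40 and 0.38 in NB4. The MOLM-13 calls were lost in 5 (RBM15) and 8 (RBM15B) of 16 alternatives, with adjusted p up to 0.117 and 0.171. METTL3, the catalytic subunit, did not pass at -0.27 and -0.18, nor did the eraser ALKBH5 at -0.03 and -0.16.

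A last list held transcripts measured in YTHDF2 immunoprecipitates. MRPL36 and LYAR were picked for that assay with results of these samples in hand, so their direction is not independent evidence. MRPL36, a mitochondrial ribosomal protein, fell by 1.28 in MOLM-13 and by 0.65 in NB4. Its MOLM-13 call was lost without DMSO replicate 3 and with low genes kept (adjusted p up to 0.156 over all alternatives). LYAR, a nucleolar protein, fell by 1.54 and 1.08, and its MOLM-13 call was lost in 6 of 16 alternatives (adjusted p up to 0.295). HPRT1, a purine salvage enzyme that served there as the non-target reference, also fell, by 0.81 in MOLM-13 (adjusted p = 0.0444) and by 0.25 in NB4 (adjusted p = 0.0463), calls that were lost in 6 and 8 of 16 alternatives. SON, a splicing cofactor used as a known target, did not pass, at 0.04 and -0.03.

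**Figure D4:**
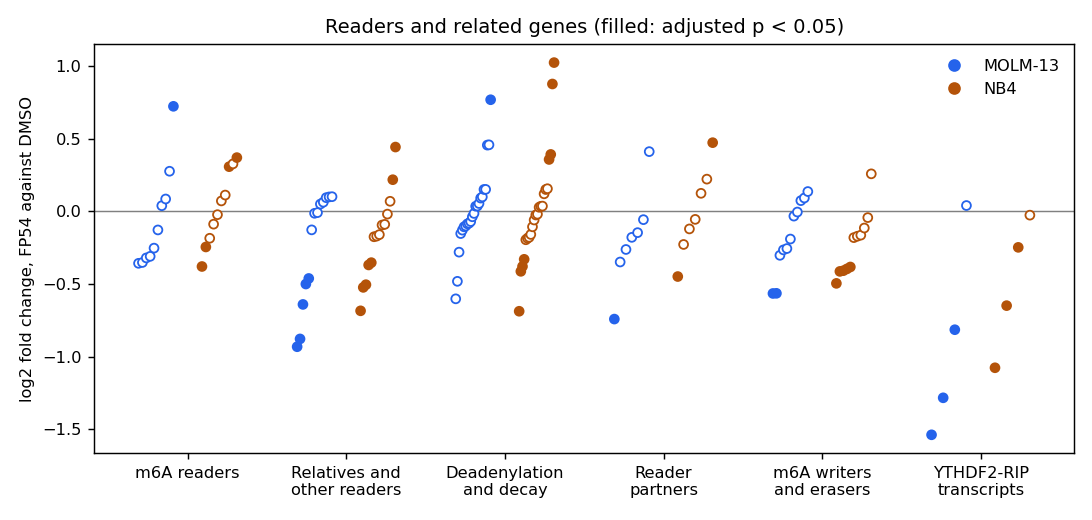
Log2 fold change with FP54 of each tested gene in the readers and the related lists, MOLM-13 in blue and NB4 in orange, filled at an adjusted p below 0.05. The readers lie between -0.38 and 0.72; in the list of writers and erasers every filled point is below 0.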

How the data were processed

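The RNA-seq libraries of both cell lines were re-analysed, 3 for each treatment. According to the authors' methods, reads were trimmed with cutadapt 4.8, aligned to hg38 with STAR 2.7.11b and assigned to protein-coding GENCODE genes by featureCounts 2.0.3; tool versions are from the submitters' processing notes. The authors deposited RPKM values, 1 table per line. Reads were recovered as RPKM times GENCODE v44 exon length (20330 of 20411 genes), and from 98.6 to 98.9% of values of up to 200 reads came out whole within 0.05.

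In R 4.3.3, limma 3.58.1 (lmFit, eBayes with trend) was run on log2(RPKM + 0.1) of the genes that averaged 1 RPKM or more, with Benjamini-Hochberg adjustment over all genes tested. The lines were compared by an interaction term. Python 3.11.15, pandas 2.3.3, numpy 2.4.6 and matplotlib 3.10.9 were used for the rest. Alternatives were pseudocounts of 1 and 0.01, no filter, a filter at 5 RPKM, median-ratio and quantile scaling, a replicate block, eBayes without a trend, and each library left out. Limma-voom on recovered reads and subtraction of the olfactory receptor level were chosen after seeing the data.

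On simulated data, the test recovered 44% (MOLM-13) and 88% (NB4) of 100 genes given a log2 change of 1, and 0% and 57% of 100 given 0.5. No other genes were changed in the simulation, while far more passed in the data. The adjustment is stricter with fewer changed genes, so these shares are not the power of the fits to the data. The readers and lists were chosen with earlier results of these data known. Named genes are the readers; list members that passed in both lines or that the study names; and, for YTHDF2 and the reader with the smallest p in each line, the 3 genes most alike. PABPC1, IGF2BP1, RBMX and LRPPRC were named after their values were seen.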

Additional observations from a re-analysis of the deposited data

Results flagged for a closer look

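The FP54 effect on 3 genes differed between the cell lines by the interaction test, which 14.2% of all genes passed. They are 2 of the 10 readers and 1 gene of the related lists. For IGF2BP2 it was 0.72 higher in NB4 than in MOLM-13 on the log2 scale (adjusted p = 0.00664), with FP54 libraries lower than DMSO in 3 of 3 in MOLM-13 and higher in 3 of 3 in NB4. PRRC2A showed the same arrangement of libraries, with a difference of 0.66 (adjusted p = 0.0300). That call was lost with median-ratio scaling (0.0731), with a replicate block (0.0658) and without MOLM-13 DMSO replicate 1, NB4 DMSO replicate 3 or any NB4 FP54 replicate (adjusted p up to 0.0834). For PABPC1, the poly(A)-binding protein among the reader partners, the difference was 0.62 (SE 0.152, adjusted p = 0.0137), from log2 fold changes of -0.15 in MOLM-13 and 0.47 in NB4, and this call was lost with median-ratio scaling and with a replicate block (adjusted p up to 0.0930). The cause of these differences was not tested.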

How the results depend on the processing

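YTHDF2 in NB4 and the interaction of IGF2BP2 kept their calls at an adjusted p below 0.05 under every alternative fit. Of single-reader values, 148 of 158 in MOLM-13, 136 of 159 in NB4 and 195 of 218 for the interaction kept direction and side of the threshold.

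In MOLM-13, keeping low genes gave 0 readers higher (main 1), and 0 lower and 0 higher in the related lists (main 11 and 1). The replicate block and eBayes without a trend gave 7 lower in the lists each, and quantile normalization and limma-voom 2 higher each. Leaving out 1 library gave 0 to 1 readers higher, and 1 to 9 lower and 0 to 3 higher in the lists. In NB4, median-ratio scaling gave 4 readers lower and 0 higher (main 2 and 2), with YTHDF1 (-0.29, adjusted p = 0.0174) and ELAVL1 (-0.38, adjusted p = 0.00281) now passing, and 38 lower and 3 higher in the lists (main 18 and 7). The study's cutoff gave 0 and 0 readers. Leaving out 1 library gave 1 to 3 readers in each direction, and 4 to 7 higher in the lists. For the interaction, median-ratio scaling and quantile normalization gave 1 reader lower each (main 0), and median-ratio scaling and the replicate block 1 higher each (main 2); leaving out 1 library gave 0 to 1 lower and 1 to 3 higher.

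Values that changed sign were small and did not pass. In NB4 with median-ratio scaling and quantile normalization these were YTHDF3 (-0.13 and -0.014) and FMR1 (-0.084 and -0.036). For the interaction they were YTHDF1 (-0.13), YTHDF3 (-0.14) and ELAVL1 (-0.039) with median-ratio scaling and YTHDF3 (-0.10) with quantile normalization. With 1 library left out the signs of YTHDC1 (-0.046 to 0.21), YTHDF3 (-0.051 to 0.11) and YTHDF1 (-0.22 to 0.013) in MOLM-13, of IGF2BP3 (-0.17 to 0.070) and YTHDF3 (-0.062 to 0.18) in NB4, and of YTHDF1 (-0.10 to 0.13), YTHDF2 (-0.13 to 0.016) and YTHDF3 (-0.10 to 0.14) in the interaction, also turned.

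Replicate numbers gave no sign of pairing. The values here are correlations of what was left of each library after the mean of its treatment was removed. Same-numbered libraries were at -0.26, -0.13 and -0.06 in MOLM-13 and at -0.14, 0.07 and 0.12 in NB4. Of differently numbered MOLM-13 pairs, DMSO 1 with FP54 3 was at 0.59, DMSO 2 with FP54 1 at 0.49 and DMSO 3 with FP54 2 at 0.47. The other such MOLM-13 pairs were at -0.27, -0.37 and -0.46, and what lies behind these values was not tested. What is left sums to 0 over the 3 libraries of a treatment, so values of both signs arise of themselves. They cannot decide whether samples were paired. With the replicate block PRRC2A no longer passed the interaction (0.66, adjusted p = 0.0658). The cause of these changes was not tested. Changes of 0.5 on the log2 scale could be missed in MOLM-13 libraries at this spread. Some of about that size did pass by limma, as LRPPRC at -0.50 (adjusted p = 0.0458), a call lost in 8 of 16 alternatives.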

Other observations

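The closest relatives of 2 readers gave further values. In the FMR1 family, FXR1 held the largest share of RPKM in both lines, 64.7 ± 0.162% in MOLM-13 and 55.3 ± 2.56% in NB4 with DMSO (SD, n = 3). The share of FMR1 was 13.2 ± 1.36% with DMSO and 19.3 ± 1.39% with FP54 in MOLM-13, higher in each FP54 library than in any DMSO library, while FXR1 (log2 fold change 0.10, adjusted p = 0.631) and FXR2 (-0.01, adjusted p = 0.970) did not pass. In NB4 PRRC2B rose beside PRRC2A, by 0.44 (SE 0.111, adjusted p = 0.00714), a call lost with median-ratio scaling (0.24, adjusted p = 0.0751), whereas PRRC2C was at -0.09 and did not pass (adjusted p = 0.401). In MOLM-13 neither PRRC2B (0.09) nor PRRC2C (-0.01) passed. PRRC2B, PRRC2C, FXR1 and FXR2 were picked after their values were seen.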
